A study of Arabidopsis thaliana with 6 samples.

Results

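The genes described here are the GROWTH-REGULATING FACTOR (GRF) transcription factors and the GRF-INTERACTING FACTOR (GIF) coactivators of *Arabidopsis thaliana*, in the mature stem. The 10 members, *GIF1* (AT5G28640), *GIF2* (AT1G01160), *GIF3* (AT4G00850), *GRF1* (AT2G22840), *GRF2* (AT4G37740), *GRF3* (AT2G36400), *GRF4* (AT3G52910), *GRF5* (AT3G13960), *GRF7* (AT5G53660) and *GRF8* (AT4G24150), were taken by locus from an expression table of 33690 features. The symbol GRF also serves for an unrelated family of phosphoserine-binding proteins, so loci and not symbols decided membership. RNA of the main stem, at 35 days after flowering, was sequenced from untreated *hdt1* plants and from wild-type (WT) Columbia plants, with 3 libraries per genotype. *HDT1* encodes a plant-specific histone deacetylase of the HD2 type, and the *hdt1* plants carry a T-DNA insertion in it. The study used 2 insertion lines, *hdt1-1* with the insertion in the untranslated leader and *hdt1-2* with it in an exon, and the labels do not say which one was sequenced. The methods state that stems, freed of flowers and leaves, were gathered 3 times per genotype, whereas the series description speaks of no replicates, and no source says that these plants were grown separately. The p-values therefore measure only the spread between these libraries, which may be technical.

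GRF proteins are plant-specific DNA-binding factors that carry a WRC domain for DNA contact and a QLQ domain through which they bind a GIF protein. GIF proteins have no DNA-binding domain of their own, and in leaves they bring chromatin remodelling complexes of the SWI/SNF type to GRF targets. The pair sustains cell proliferation in young organs, and the microRNA miR396 limits it by pairing with the mRNA of most, but not all, GRF genes.

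The miR396 sequences are shown because the members divide by them. The mature strands below come from the RefSeq annotation of TAIR10.1, with bases 2 to 8, the seed, in capitals. miR396a lies at chr2:4142443-4142463 on the minus strand and miR396b at chr5:13611808-13611828 on the plus strand.
miR396a-5p: uUCCACAGcuuucuugaacug
miR396b-5p: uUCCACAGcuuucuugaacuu
The transcript with the longest coding sequence was searched in 27444 coding genes for a stretch complementary to either miRNA, with up to 2 edits (a changed, missing or added base). Such a stretch was found in 7 genes, 0.0255% of those searched, and all 7 were GRF genes, 6 of them members and the other one *GRF9*. Each stretch of 21 bases lies in coding sequence. The capitals mark the 7 bases that face the seed when the stretch is laid against the miRNA from its last base without a gap.
GRF1, GRF2, GRF3 and GRF4: cguucaagaaagcCUGUGGAa
GRF7 and GRF8: cguucaagaaagcAUGUGGAa
GRF9: cguucaagaaagcUUGUGGAa
The stretch is at chr2:9729945-9729965 in *GRF1*, chr4:17726404-17726424 in *GRF2*, chr2:15271745-15271765 in *GRF3*, chr3:19617293-19617313 in *GRF4*, chr5:21795146-21795166 in *GRF7* and chr4:12538650-12538670 in *GRF8*. In this placing without a gap, all seed bases match in *GRF1* to *GRF4*, and the first capital of *GRF7*, *GRF8* and *GRF9* does not match base 8. With the 2 edits of the search, that capital is an added base and the c before it matches base 8. All 7 stretches were 2 edits away from miR396a, and a difference in seed pairing between them was not tested. The best stretch in *GIF1*, *GIF2*, *GIF3* and *GRF5* was 5 to 6 edits away. A match in letters is a description of the sequence and shows no cleavage in these stems.

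Levels are given in FPKM, fragments scaled to transcript length and to the mapped reads of the library, so that genes can be compared per length. The scale of each library rested on 40505052 to 45230842 reads, and whole read numbers could be computed back from the FPKM values. The table numbers the libraries of each genotype 1, 2 and 4. Library 1 stood apart in both genotypes: across genes, the log2 profiles of libraries 2 and 4 correlated at 0.9949 in *hdt1* and at 0.9951 in WT, those of both libraries 1 at 0.9769, and all other pairs at 0.8531 to 0.9061. Differences of the members are therefore also described for library 1 and for libraries 2 and 4. *HDT1* itself had 4.97, 19.8 and 20.5 FPKM in *hdt1* libraries 1, 2 and 4, against 53.3, 65.3 and 56.9 FPKM in WT libraries 1, 2 and 4, and no *hdt1* library reached a WT library. The genes that reached 1 FPKM in 3 or more libraries were compared with limma on log2(FPKM + 1) values, and a call needed an adjusted p (Benjamini-Hochberg over 17906 genes) under 0.05. *HDT1* had a log2 fold change of -2.10 ± 0.51 (SE), with a limma adjusted p of 0.269, and a log2 difference of -3.19 in library 1 and -1.55 in libraries 2 and 4. With a term for library 1 the limma adjusted p was 0.0394, and 0.0737 in that fit without the filter on low genes. *HDT1* shares 315 bases with AT3G44740 on the other strand, which had 4.61, 6.45 and 6.20 FPKM in *hdt1*, against 9.55, 10.9 and 8.94 FPKM in WT, and the strand setting of the counting is not known.

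The mean log2 value of every member was lower in *hdt1* than in WT. This held for 10 of 10 members, while 54.4% of the 25374 features above 0 in the table had a lower mean in *hdt1*. In 6 members, *GIF1*, *GIF3*, *GRF2*, *GRF5*, *GRF7* and *GRF8*, each *hdt1* library was below each WT library, a pattern that 8.99% of those features showed, and no member had it the other way round. The median log2 fold change of the 10 members was -0.51, against -0.02 over all features above 0, on a scale that understates the change of low genes. Median-ratio scaling of the libraries left 10 of 10 members lower, with a median of -0.48 against 0.00 over those features. Within library 1 the difference was below 0 for 9 members, with a median of -0.35, and *GRF4* was the exception. Within libraries 2 and 4 it was below 0 for all 10 members, with a median of -0.68. A difference below 0 in both comparisons was found in 28.7% of the features above 0. In a whole stem, fewer cells that express a gene and less RNA per cell cannot be told apart.

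No member passed the test across genes with all libraries in the fit. Of the 7 members above the filter, limma called 0, as it called 0% of the 17906 genes, and the smallest adjusted p of any gene was 0.0799. At an unadjusted p under 0.05, limma had 3 members, *GIF1*, *GIF3* and *GRF8*, all lower in *hdt1*, and 5.96% of the tested genes were lower in *hdt1* at that level. Without the filter, 6 of 10 members reached it, against 5.39% of the features. A limma fit with voom weights on the recovered reads called 0 genes, with 2383 genes at an unadjusted p under 0.05. With a term that sets library 1 against libraries 2 and 4, limma called *GIF1* and *GRF8* lower in *hdt1*, where 2.52% of the tested genes were called lower, and that fit without the filter called 0 members. *GIF1* entered the test only through its WT libraries, so counts over the tested members are no support for a direction.

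**Figure D1:**
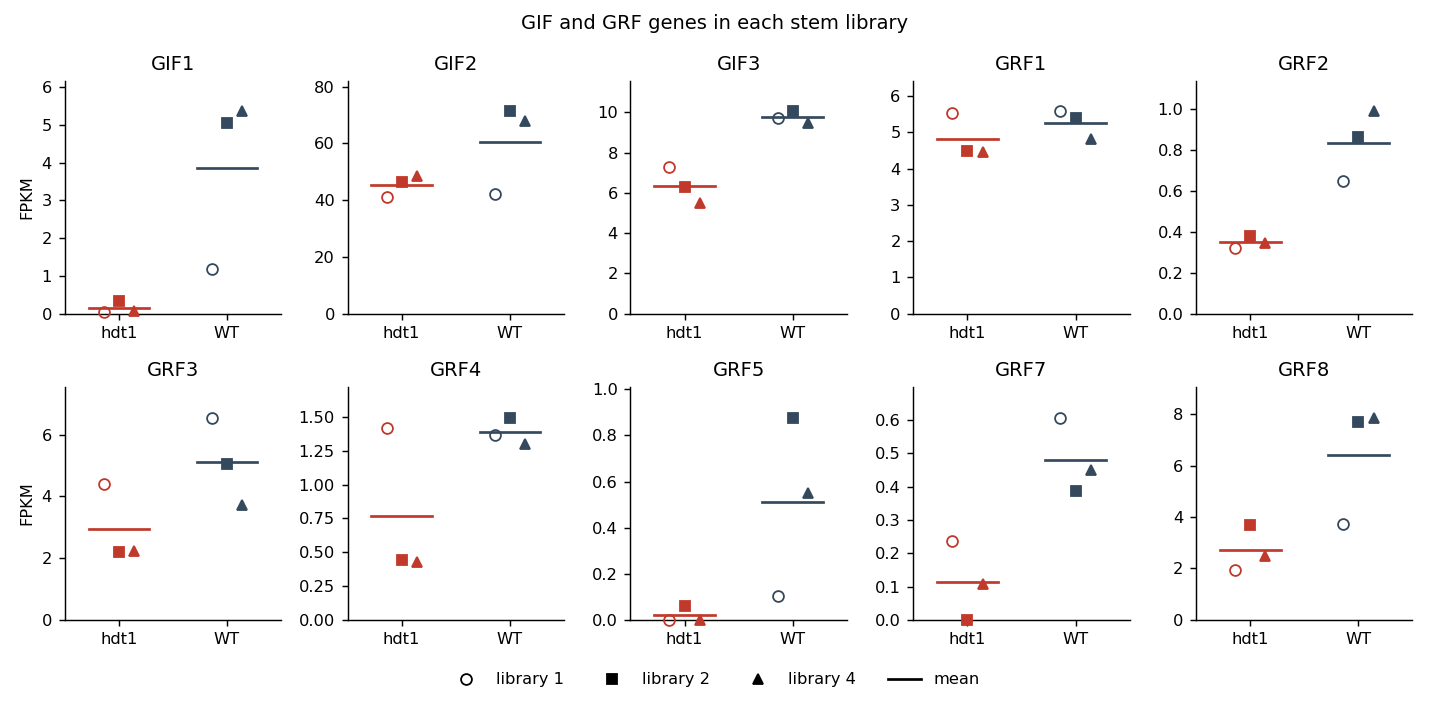
FPKM (y axis, from 0, a scale for each gene) of the 10 GIF and GRF genes in the 3 *hdt1* libraries (red) and the 3 WT libraries (dark blue), with open circles for library 1, squares for library 2, triangles for library 4 and a bar for the mean. *GIF1* lies between 0.0379 and 0.323 FPKM in *hdt1* and between 1.19 and 5.36 FPKM in WT, while *GRF1* overlaps between the genotypes.

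*GIF1*, also known as *ANGUSTIFOLIA3*, encodes the coactivator whose loss gives narrow leaves with fewer cells. Its log2 fold change of FPKM + 1 was the largest in size of the 10 members. That scale flattens low genes, and by the ratio of means *GRF5* was close to *GIF1*, with an *hdt1* mean at 3.90% of the WT mean. *GIF1* lies at chr5:10647467-10650066 on the minus strand of TAIR10.1. Its level was 0.0379, 0.323 and 0.0808 FPKM in *hdt1* libraries 1, 2 and 4, against 1.19, 5.04 and 5.36 FPKM in WT libraries 1, 2 and 4. These values stand for 2, 16 and 4 reads in *hdt1* and for 59, 255 and 253 reads in WT. The groups did not overlap, and each *hdt1* library was far below its WT library of the same number, at 3.19%, 6.40% and 1.51% of it. The mean was 0.147 ± 0.153 FPKM in *hdt1* and 3.86 ± 2.32 FPKM in WT (SD, n = 3 each), so the *hdt1* mean was 3.81% of the WT mean. Over pooled reads the ratio was 3.77% (exact 95% interval 2.34 to 5.76%), and such intervals cover counting error only. The log2 fold change was -1.94 ± 0.44 (SE), with a limma p of 0.00402 and a limma adjusted p of 0.251. With the library 1 term the limma adjusted p was 0.0364. *GIF1* was among the genes the study itself picked from these libraries, so this difference is not independent evidence. The study also reported a lower *GIF1* level in *hdt1* stems by qRT-PCR.

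The other coactivators act redundantly with *GIF1* in leaf and flower growth, and both had higher levels than *GIF1* in each library. *GIF2* had 40.9, 46.3 and 48.6 FPKM in *hdt1* libraries 1, 2 and 4, against 42.2, 71.3 and 67.8 FPKM in WT libraries 1, 2 and 4. WT library 1 lay inside the *hdt1* range, so that the groups overlapped, and WT libraries 2 and 4 were above all others. *GIF2* lies at chr1:72339-74096 and *GIF3* at chr4:357345-359337, both on the plus strand. The log2 fold change was -0.37 ± 0.24 (SE; limma adjusted p = 0.508), with -0.04 in library 1 and -0.54 in libraries 2 and 4. *GIF3* had 7.27, 6.31 and 5.52 FPKM in *hdt1* libraries 1, 2 and 4, against 9.74, 10.05 and 9.46 FPKM in WT libraries 1, 2 and 4. All *hdt1* values of *GIF3* were below all WT values, and the WT values were close together, with a mean of 6.37 ± 0.873 FPKM in *hdt1* and 9.75 ± 0.296 FPKM in WT (SD, n = 3 each). Its log2 fold change was -0.55 ± 0.16 (SE; limma adjusted p = 0.293), and with the library 1 term the limma adjusted p was 0.0522. Reads of both genes may be mixed with those of neighbours, since the sources used here do not give the strand setting of the counting. *GIF2* shares 166 bases with AT1G01170 on the other strand, which had 129, 58.8 and 68.5 FPKM in *hdt1*, against 168, 102 and 90.0 FPKM in WT. *GIF3* shares 115 bases with *ATOZI1*, which had 130, 144 and 159 FPKM in *hdt1*, against 137, 90.8 and 83.5 FPKM in WT. The same limit holds for other members. *GIF2*, *GRF3* and *GRF7* share 463, 227 and 244 bases with noncoding RNA genes on the other strand, which have no values here. *GRF1* shares 23 bases with *bZIP6* and *GRF3* shares 5 bases with *SBE2.1*, also on the other strand.

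Among the GRF genes above the filter, *GRF8* was the only one called with the library 1 term, and *GRF2*, *GRF5* and *GRF7* did not enter that fit. Without the filter that fit called 0 members. Its limma adjusted p was then 0.0592 for *GRF7*, 0.0661 for *GRF2* and 0.0799 for *GRF8*. *GRF8* lies at chr4:12535972-12539576 on the plus strand and had 1.95, 3.68 and 2.50 FPKM in *hdt1* libraries 1, 2 and 4, against 3.71, 7.70 and 7.88 FPKM in WT libraries 1, 2 and 4. The groups did not overlap, although *hdt1* library 2 and WT library 1 almost met. Mean levels of *GRF8* were 2.71 ± 0.883 FPKM in *hdt1* and 6.43 ± 2.36 FPKM in WT (SD, n = 3 each), from 131 to 232 reads per library in *hdt1* and 234 to 495 reads per library in WT. The log2 fold change was -0.97 ± 0.32 (SE; limma adjusted p = 0.314), with -0.67 in library 1, -1.12 in libraries 2 and 4, and a limma adjusted p of 0.0437 with the library 1 term.

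*GRF1*, *GRF2* and *GRF3* promote the expansion of leaves and cotyledons in overlapping roles, and *GRF4* acts with them in cotyledon and shoot meristem development. Their differences were not alike. *GRF1* had 5.52, 4.48 and 4.46 FPKM in *hdt1* libraries 1, 2 and 4, against 5.58, 5.38 and 4.82 FPKM in WT libraries 1, 2 and 4. The groups overlapped, and the log2 fold change of -0.11 ± 0.16 (SE; limma adjusted p = 0.787) was the one nearest 0 among the members. *GRF3* had 4.39, 2.18 and 2.23 FPKM in *hdt1* libraries 1, 2 and 4, against 6.55, 5.05 and 3.71 FPKM in WT libraries 1, 2 and 4. In both genotypes *GRF3* was highest in library 1, and *hdt1* library 1 exceeded WT library 4, so the groups overlapped. Its log2 fold change was -0.65 ± 0.29 (SE; limma adjusted p = 0.385).

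*GRF4* divided by library. It had 1.42, 0.445 and 0.430 FPKM in *hdt1* libraries 1, 2 and 4, from 95, 28 and 27 reads, against 1.37, 1.496 and 1.30 FPKM in WT libraries 1, 2 and 4, from 86, 96 and 78 reads. Library 1 was about level between the genotypes, with a difference of 0.03 on the log2 scale, and libraries 2 and 4 differed by -0.74. Over all libraries the log2 fold change was -0.48 ± 0.26 (SE; limma adjusted p = 0.451). *GRF2* was under 1 FPKM in each library and was not tested. It had 0.322, 0.379 and 0.343 FPKM in *hdt1* libraries 1, 2 and 4, against 0.647, 0.863 and 0.988 FPKM in WT libraries 1, 2 and 4. The *hdt1* values were close together and all below WT, and their mean was 41.8% of the WT mean.

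*GRF5*, which promotes cell division in leaf primordia, and *GRF7*, a repressor of osmotic stress genes, were near the limit of detection. *GRF5* had 0, 4 and 0 reads in *hdt1* libraries 1, 2 and 4, against 7, 60 and 35 reads in WT libraries 1, 2 and 4. In FPKM this was 0, 0.0597 and 0 in *hdt1*, against 0.104, 0.878 and 0.548 in WT, where 3 reads, the limit that a count of 0 allows, stood for 0.0470 FPKM. The pooled read ratio of *GRF5* was 3.81% (exact 95% interval 1.02 to 10.05%). *GRF7* had 14, 0 and 6 reads in *hdt1* libraries 1, 2 and 4, against 34, 22 and 24 reads in WT libraries 1, 2 and 4. Its FPKM values were 0.235, 0 and 0.107 in *hdt1*, against 0.608, 0.386 and 0.451 in WT, with a limit of 0.0563 FPKM for a count of 0 and a pooled read ratio of 24.3% (exact 95% interval 14.1 to 40.0%). The *hdt1* and WT libraries did not overlap in either gene.

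**Figure D2:**
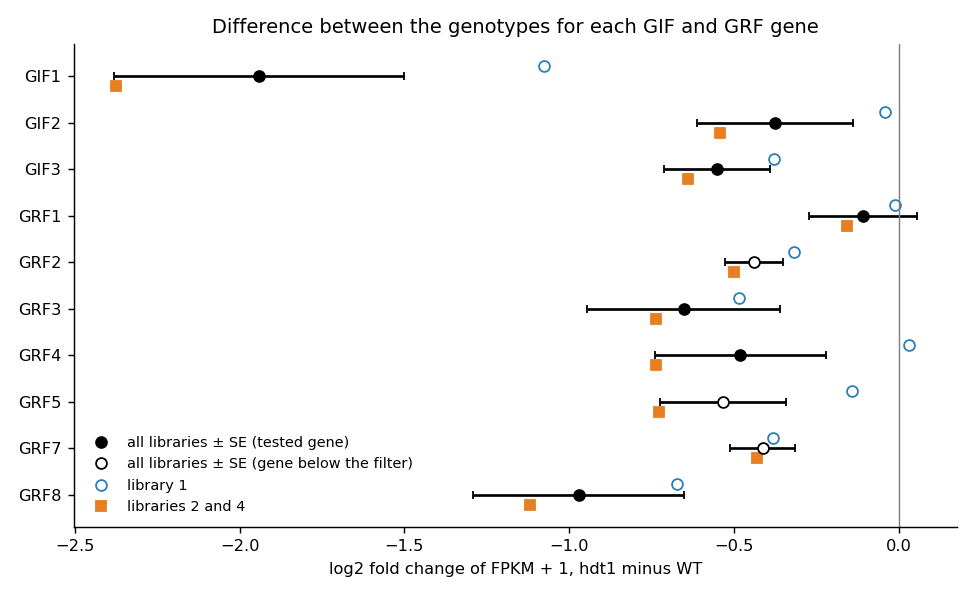
Log2 fold change of FPKM + 1, *hdt1* minus WT (x axis), of each GIF and GRF gene (y axis), over all libraries with its SE (filled black circles for tested genes, open black circles for genes below the filter, whose SE is from the fit without it), within library 1 (open blue circles) and within libraries 2 and 4 (orange squares). All points of the all-library fit are below 0, *GIF1* is farthest at -1.94, and only *GRF4* in library 1 is above 0, at 0.03.

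The remaining genes of the system were at low levels. *GRF9*, which holds the miR396 stretch but is no member, had 1, 5 and 7 reads in *hdt1* libraries 1, 2 and 4, against 3, 36 and 53 reads in WT libraries 1, 2 and 4, and the groups overlapped. *GRF6* was at 0 in 4 of 6 libraries and reached at most 0.159 FPKM. The *MIR396A* locus had 4, 4 and 3 reads in *hdt1* libraries 1, 2 and 4, against 10, 4 and 4 reads in WT libraries 1, 2 and 4. *MIR396B* had 1.31, 0.348 and 3.49 FPKM in *hdt1*, against 0.348, 3.76 and 0.366 FPKM in WT, with a limma adjusted p of 0.894. These loci count precursor fragments, and mature miR396 was not measured. The members with and without the miR396 stretch printed above were also described apart. The 6 with it had a median log2 fold change of -0.46 and 3 with groups that did not overlap, and the 4 without it had a median of -0.54 and 3 with groups that did not overlap. Of the features above 0, 8.99% had each *hdt1* library below each WT library. *GRF2*, *GRF5* and *GRF7* were under 1 FPKM, where this scale flattens differences, so these medians do not decide whether the 2 sets differ.

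Seen as a family, one gene carried most of the coactivator RNA in both genotypes. The 3 GIF genes summed to 48.2, 53.0 and 54.2 FPKM in *hdt1* libraries 1, 2 and 4, against 53.1, 86.4 and 82.7 FPKM in WT libraries 1, 2 and 4. *GIF2* made up 84.9 to 89.7% of this sum in *hdt1*, against 79.4 to 82.5% in WT, whereas *GIF1* made up 0.0786 to 0.609% in *hdt1*, against 2.24 to 6.48% in WT. The sum overlapped between the genotypes (two-sided exact permutation p = 0.2, where 0.1 is the smallest that 3 against 3 libraries allow). The 7 GRF genes summed to 13.8, 11.2 and 10.07 FPKM in *hdt1* libraries 1, 2 and 4, against 18.6, 21.8 and 19.7 FPKM in WT libraries 1, 2 and 4, with no overlap (two-sided exact permutation p = 0.1, the smallest possible). Its mean was 11.7 ± 1.94 FPKM in *hdt1* and 20.0 ± 1.62 FPKM in WT (SD, n = 3 each). *GRF1* took 39.9 to 44.3% of the GRF sum in *hdt1*, against 24.5 to 30.0% in WT, without overlap. The share of *GRF8* was 14.1 to 32.8% in *hdt1*, against 20.0 to 40.0% in WT, and overlapped.

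**Figure D3:**
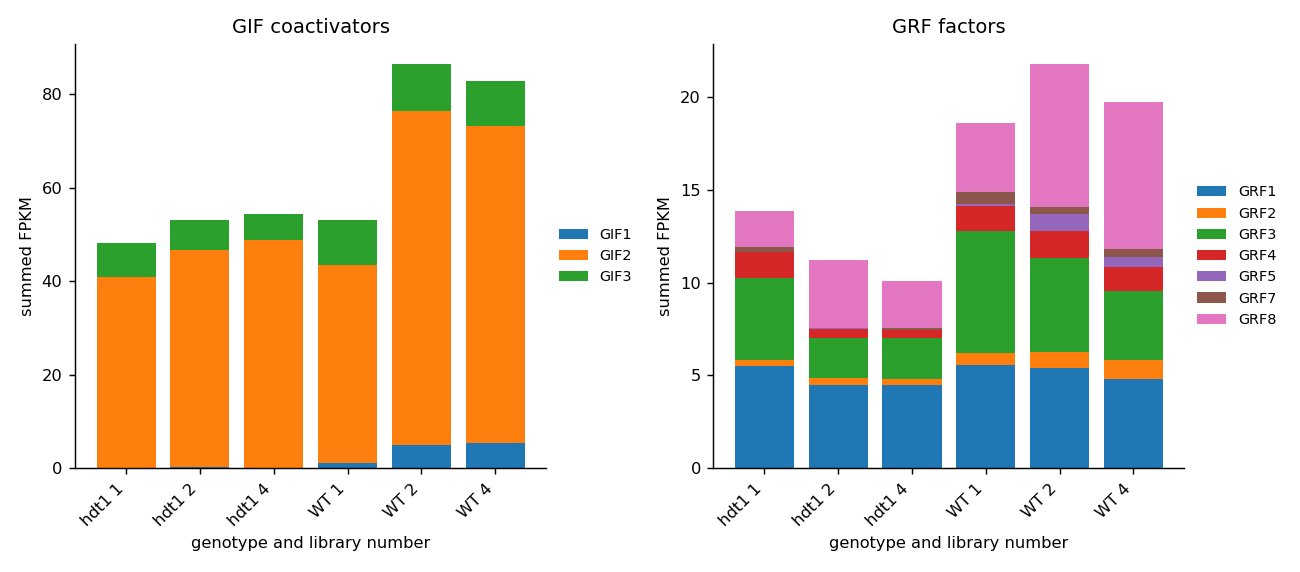
Summed FPKM (y axis, from 0) of the 3 GIF genes (left) and the 7 GRF genes (right) in each library (x axis, *hdt1* 1, 2 and 4, then WT 1, 2 and 4), with 1 colour per gene. *GIF2* fills at least 79.4% of each GIF bar, and the GRF bars reach 10.07 to 13.8 FPKM in *hdt1* and 18.6 to 21.8 FPKM in WT.

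By mean level, the order in *hdt1* was *GIF2*, *GIF3*, *GRF1*, *GRF3*, *GRF8*, *GRF4*, *GRF2*, *GIF1*, *GRF7* and *GRF5*. In WT it was *GIF2*, *GIF3*, *GRF8*, *GRF1*, *GRF3*, *GIF1*, *GRF4*, *GRF2*, *GRF5* and *GRF7*. In *hdt1*, the ranges of neighbours in this order overlapped for *GRF3* and *GRF8* and for the last 4 genes, from *GRF2* to *GRF5*. In WT, only *GIF2* and *GIF3*, *GIF3* and *GRF8*, and *GRF4* and *GRF2* had ranges apart, so the order of *GRF8*, *GRF1*, *GRF3*, *GIF1* and *GRF4* is not resolved between neighbours. *GIF2* was higher than 88.3% of the features above 0, *GIF3* than 52.3% and *GIF1* than 34.4%, by mean over all libraries.

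Genes of other tissues also differed between the genotypes, the seed genes mainly in libraries 2 and 4, and *AP3* and *PDF1* in library 1 too. The 8 seed genes of the marker list, among them the cruciferins and the seed storage albumins, summed to 0.426, 9.19 and 8.05 FPKM in *hdt1* libraries 1, 2 and 4, against 0, 234 and 232 FPKM in WT libraries 1, 2 and 4. Of these 8, 7 were higher in WT libraries 2 and 4 than in the *hdt1* libraries 2 and 4, and *SESA1* was not. In library 1, all 8 seed genes were at 0 in WT and summed to 0.426 FPKM in *hdt1*, and *GIF1* had 0.0379 FPKM in *hdt1* against 1.19 FPKM in WT. The 7 flower organ genes summed to 4.82, 0.848 and 1.64 FPKM in *hdt1*, against 4.31, 3.13 and 3.55 FPKM in WT, and these sums overlapped. *AP3* was at 0 in each *hdt1* library, against 0.113, 0.645 and 0.786 FPKM in WT libraries 1, 2 and 4. It alone among the 7 had each *hdt1* library below each WT library, as had 8.99% of the features above 0. The protoderm gene *PDF1* had 0.214, 0 and 0 FPKM in *hdt1* libraries 1, 2 and 4, against 0.833, 5.92 and 5.33 FPKM in WT libraries 1, 2 and 4, and the list of 3 protoderm genes summed to 4.80 to 11.95 FPKM in *hdt1*, against 13.3 to 14.4 FPKM in WT. The study listed *PDF1* as lower in *hdt1* from these same libraries and also by qRT-PCR, so its values here are not independent evidence.

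The lists for tissues of the growing shoot and of the stem did not move alike. The 7 meristem and boundary genes, of which *STM* held most, summed to 130.1, 97.0 and 90.2 FPKM in *hdt1* libraries 1, 2 and 4, against 129, 137 and 145 FPKM in WT libraries 1, 2 and 4, with *WUS* at 0 in *hdt1* libraries 2 and 4 and in WT library 2. These sums overlapped. *STM* itself had 105, 83.8 and 78.1 FPKM in *hdt1* libraries 1, 2 and 4. In WT libraries 1, 2 and 4 it had 108, 114 and 121 FPKM, so library 1 was about level, at -0.03 on the log2 scale. *STM* was among 2 of the 7 genes with each *hdt1* library below each WT library, against 8.99% of the features above 0. Each of the 5 xylem genes was above all WT libraries in all *hdt1* libraries, which 7.91% of the features above 0 showed, with sums of 131 to 155 FPKM in *hdt1*, against 22.1 to 50.5 FPKM in WT, and limma with the library 1 term called all 5, where 3.82% of the tested genes were called higher. Most of these 5 genes were listed by the study as higher in *hdt1* from these same libraries, some also by qRT-PCR. The counts of xylem genes are therefore not independent evidence. The 2 phloem genes summed to 160.2 to 167 FPKM in *hdt1*, against 97.9 to 121 FPKM in WT, and the 2 cambium genes overlapped, at 14.4 to 34.2 FPKM in *hdt1* against 11.3 to 22.05 FPKM in WT. The xylem, phloem and cambium genes of a stem were thus present in each library. The part of these tissue differences in the GIF and GRF values was not tested.

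**Figure D4:**
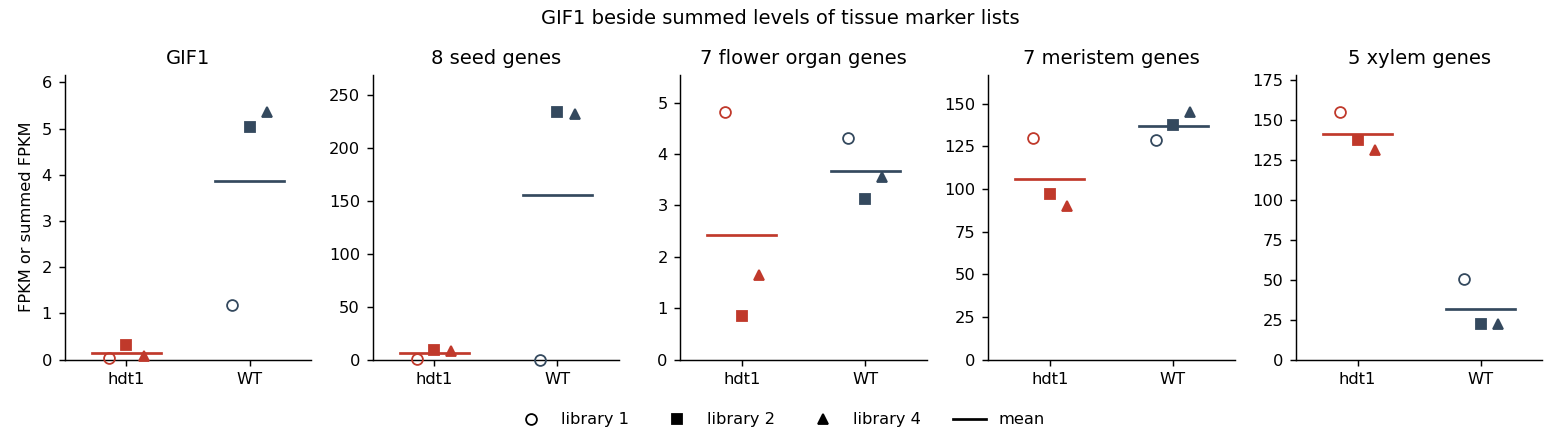
FPKM of *GIF1* and summed FPKM of 4 marker lists (y axes, from 0, a scale for each panel) in the 3 *hdt1* libraries (red) and the 3 WT libraries (dark blue), with open circles for library 1, squares for library 2, triangles for library 4 and a bar for the mean. The seed sum is 234 and 232 FPKM in WT libraries 2 and 4 and 0 in WT library 1, while *GIF1* in WT library 1 is at 1.19 FPKM.

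The partners and relatives of the GRF and GIF system were read from 5 lists, and limma called 0 genes of each with all libraries in the fit. All 10 subunits of SWI/SNF remodelling complexes, which bind GIF proteins, were above the filter. Of these, 9 had a lower mean in *hdt1*, as had 54.4% of all features above 0, with a median log2 fold change of -0.39, against -0.08 over all genes tested. *SWI3B*, a core subunit, had 22.5, 18.5 and 19.8 FPKM in *hdt1* libraries 1, 2 and 4, against 25.7, 31.3 and 30.8 FPKM in WT libraries 1, 2 and 4, without overlap (log2 fold change -0.51 ± 0.16 SE, limma adjusted p = 0.301, at -0.18 for library 1 and -0.67 for libraries 2 and 4). The actin-related *ARP4* (-0.41 over all, -0.08 for library 1, -0.58 for libraries 2 and 4) and *SWP73A* (-0.45 over all, -0.34 for library 1, -0.50 for libraries 2 and 4) had an unadjusted limma p under 0.05 as well, which makes 3 of 10, against 5.96% of the tested genes. The ATPase *BRM*, known to bind GIF1 protein, was at -0.14 with groups that overlapped and turned its direction, at 0.28 for library 1 and -0.36 for libraries 2 and 4. With the library 1 term 1 of the 10, *BSH*, was called lower by limma, against 2.52% of the tested genes.

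The TCP factors, which raise miR396 levels in leaves, were listed with *MIR319A*, which targets TCP mRNA. Of these 6 genes 4 were tested, with a median log2 fold change of -0.12. Of the 4, 3 had a lower mean in *hdt1*, as had 54.4% of the features above 0, and *MIR319A* was at 0.38. *TCP2* was at -0.54 with groups that overlapped. *TCP10*, at -0.21, alone of the 6 had each *hdt1* library below each WT library, against 8.99% of the features above 0. Of 4 genes described as targets of the GIF1 protein in leaves, 2 were tested. The response regulator *ARR4* was at -0.36, at -0.71 for library 1 and -0.18 for libraries 2 and 4. *COL5*, a relative of CONSTANS, was at -0.40 but turned its direction, at 0.84 for library 1 and -1.03 for libraries 2 and 4. *HEC1* had no reads in 5 of 6 libraries. Of 10 other regulators of organ size, 9 were tested, with a median of -0.30. *ARGOS*, which acts upstream of the growth factor *ANT*, had 5.62, 20.2 and 19.8 FPKM in *hdt1* libraries 1, 2 and 4, against 7.13, 0.999 and 0.969 FPKM in WT libraries 1, 2 and 4. Its direction differed between the libraries, with a log2 difference of -0.30 in library 1 and of 3.405 in libraries 2 and 4 (2.17 ± 0.71 SE over all, limma adjusted p = 0.313). Of 16 cell cycle genes only 5 reached the filter, with a median of -0.09, and 0 of these had an unadjusted limma p under 0.05. Over all 16 the median was 0.09, with 5 lower in *hdt1*, where 54.4% of all features above 0 were lower. The kinase genes *CDKB1;1* and *CDKB2;2*, both below the filter, had all *hdt1* values above all WT values, which makes 2 of 16, against 7.91% of those features. The cyclin *CYCB1;1* did not exceed 0.410 FPKM in any library.

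The genes whose profile over the 6 libraries was most like that of *GIF1* were found by the root mean square difference of centred log2(FPKM + 1) values. They were AT5G64910 (0.24), AT5G59170 (0.33), the lipid transfer protein gene *LTP6* (0.36), the latex protein relative *MLP28* (0.36) and the transporter gene *ABCG22* (0.40). AT5G64910 had 15.6, 29.1 and 26.5 FPKM in *hdt1* libraries 1, 2 and 4, against 53.3, 118 and 119 FPKM in WT libraries 1, 2 and 4. Like *GIF1*, it was lowest in library 1 within each genotype and lower in *hdt1* in each. Among the members, *GRF8* was nearest to *GIF1*, at 0.53. *GIF2* and *GRF5* were nearest to each other at 0.13, as were *GIF3* and *GRF7* at 0.14, where the low levels of *GRF5* and *GRF7* flatten their profiles on this scale.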

How the data were processed

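The authors deposited FPKM values per gene and library, and the submitters' processing notes list HTSeq 0.6.1, TopHat2 2.0.12 and Bowtie2 2.2.3 with no role stated. RPKM is the unit named in the paper. Genome build and strand setting: not given in the sources used here. Raw reads were not used here. Table columns are numbered 1, 2 and 4 and the labels 1 to 3, so columns were tied to genotypes only. Whole reads were recovered from the FPKM steps for all 25374 features above 0 (tolerance 0.0001 reads), known up to a common factor in rare genes. In simulated data 99.4% of 3328 genes with at least 10 reads in each library came back as drawn. This check does not cover genes with fewer reads in some libraries, such as *GIF1*, *GRF5* and *GRF7*. Libraries 2 and 4 had a median chi-square per gene of 2.39 in *hdt1* and 2.23 in WT, against 0.455 from counting alone, so they were kept as separate libraries.

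The test across genes was limma 3.58.1 (R 4.3.3, mean-variance trend) on log2(FPKM + 1), for genes reaching 1 FPKM in 3 or more libraries. It was tested on simulated data. Single sums were compared by exact permutation. Python 3.11.15 was used for the rest. Coordinates are from RefSeq TAIR10.1, in which 32835 identifiers were found. Same-numbered libraries deviated together (r of 0.56, 0.53 and 0.46 for numbers 1, 2 and 4), but the crossed numbers 2 and 4 did so too (0.54 and 0.51). The pairing comes from these values and not from the labels.

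The genes named are all 10 members, *HDT1*, *GRF6*, *GRF9*, *MIR396A* and *MIR396B*, the 5 genes most like *GIF1*, and up to 3 genes per list, those called or with the smallest p. *BRM*, *HEC1*, *CRF2*, *BSH*, *CYCB1;1*, *CDKB1;1*, *CDKB2;2*, *SESA1*, *AP3*, *PDF1*, *STM* and *WUS* of the lists and the overlapping genes were named after their values were seen. The members, lists and the division by library 1 were chosen with earlier results of these data known.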

Additional observations from a re-analysis of the deposited data

How the results depend on the processing

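All 10 members stayed below 0 on the log2 scale under each of the 15 alternatives that gave a value, and *HDT1* did too. The calls turned on library 1. *HDT1* was called by limma with the library 1 term (-2.10, adjusted p 0.0394), with that term and voom weights (-2.10, adjusted p 0.0322) and in libraries 2 and 4 alone (-1.55, adjusted p 1.66e-06). Leaving out 1 library in turn gave *HDT1* values of -2.41 to -1.49 (limma adjusted p 0.00834 to 0.882). Of the members, limma called 2 with the library 1 term, 2 with that term and voom weights, 6 in libraries 2 and 4 alone, and 0 to 2 with 1 library left out (2 without *hdt1* library 1, 1 without WT library 1). Of the genes of the 5 pathway lists, markers left out, it called 1, 1, 21 and 0 to 2 in those settings (2 without WT library 1). Libraries 2 and 4 alone called 4905 genes higher and 6904 lower of 17906, so member calls there say little. The library 1 term called 684 higher and 451 lower, without *hdt1* library 1 1222 and 772, and without WT library 1 599 and 537, against 0 in the fit of all libraries. The library number as a replicate block gave 0 called members and changed no call. Over the alternatives the limma adjusted p ranged over 8.04e-06 to 0.882 for *GIF1* and over 0.00033 to 0.882 for *GRF8*. A pseudocount of 0.1 FPKM gave -1.04 for *GRF2*, -2.11 for *GRF5* and -1.59 for *GRF7*. A filter at a mean of 5 FPKM kept 3 members and dropped *GIF1*. The voom fit with the library 1 term was added after seeing the data. Depth limits *GRF5* and *GRF7*, with 0 reads in some *hdt1* libraries.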
